A study of Rattus norvegicus with 8 samples.

Results

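Atf4, Ddit3 and 8 further effectors of the integrated stress response were followed through both compartments of rat hippocampal neurons whose axons alone had met the amyloid peptide. The 10 genes are Atf4, Ddit3, Atf3, Atf5, Trib3, Chac1, Asns, Sesn2, Ddit4 and Cebpb, of 26405 genes in each of the authors' deposited tables. Of these, 9 were found by the gene symbol in the tables, and Ddit3, whose symbol is blank there, by its Entrez identifier in the RefSeq gene table. Embryonic hippocampal neurons of the rat were cultured for 10 to 14 days in microfluidic chambers, in which axons reach a compartment apart from the cell bodies. For 24 h the axons alone received Abeta(1-42), in soluble oligomeric form, or its vehicle, and RNA of the axonal compartment and of the compartment with soma and neurites was sequenced. This gives 4 groups of 2 samples: axons Abeta, axons control, soma Abeta and soma control. The labels name no genotype, strain or sex and do not say whether the duplicates were separate cultures, so p-values reflect no more than the spread of these samples, which may be technical.

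The integrated stress response is the shared answer of cells to misfolded protein in the endoplasmic reticulum, lack of amino acids, lack of heme or double-stranded RNA. Each of these activates a kinase that phosphorylates the translation factor eIF2, which lowers protein synthesis in general and raises translation of Atf4, a basic leucine zipper (bZIP) transcription factor. ATF4 binds C/EBP-ATF composite elements, with partners of the C/EBP family, and drives genes of amino acid supply, redox balance and, under lasting stress, Ddit3 (CHOP), a factor linked to cell death. In hippocampal axons exposed to amyloid peptide, local translation of Atf4 mRNA has been described as a retrograde signal, which is why the axonal level of this transcript is of interest in this design.

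The sequence before the transcription start was searched for such elements in 9 of the 10 genes (all but Atf3), taken from RefSeq (GRCr8). The letters searched were TGATGNAAN (the C/EBP-ATF composite), TGACGNAAN (the same with the first letters of a cyclic AMP response element), TGACGTCA (the full cyclic AMP response element) and CCAAT, each on both strands of the 250 bases before the start. Trib3 and Chac1 matched the composite, which 3.25% of 27457 rat promoters hold. Chac1 alone of the 9 genes matched TGACGNAAN (1.86% of promoters), and 0 of 9 matched TGACGTCA (1.70% of promoters). CCAAT was found in 4 of 9, beside 34.3% of promoters. A match is a description of letters and not a binding site, and a window without a match does not exclude an element elsewhere in the gene. The 4 windows below are those of the genes with the largest axonal fold changes, Ddit3 and Ddit4, and of the pair with a composite match, with all matches in capitals, read on the strand of the gene. No match of a motif overlapped that of another.
Ddit3 (chr7:65001445-65001694, plus strand): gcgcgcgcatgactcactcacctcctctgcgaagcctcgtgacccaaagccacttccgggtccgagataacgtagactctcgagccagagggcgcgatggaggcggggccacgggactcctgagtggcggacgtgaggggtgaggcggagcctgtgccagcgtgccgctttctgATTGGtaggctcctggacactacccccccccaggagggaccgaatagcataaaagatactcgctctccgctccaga
Ddit4 (chr20:28437038-28437287, minus strand): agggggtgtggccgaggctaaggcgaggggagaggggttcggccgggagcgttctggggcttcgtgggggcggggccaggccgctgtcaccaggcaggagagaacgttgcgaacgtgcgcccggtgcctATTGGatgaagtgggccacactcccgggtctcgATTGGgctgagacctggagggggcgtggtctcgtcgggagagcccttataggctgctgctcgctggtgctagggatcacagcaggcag
Trib3 (chr3:161275534-161275783, minus strand): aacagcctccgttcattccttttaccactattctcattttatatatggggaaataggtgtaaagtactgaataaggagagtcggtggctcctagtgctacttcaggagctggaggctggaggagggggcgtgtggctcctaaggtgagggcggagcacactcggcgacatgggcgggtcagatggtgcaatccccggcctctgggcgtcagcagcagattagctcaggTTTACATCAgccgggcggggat
Chac1 (chr3:126795881-126796130, plus strand): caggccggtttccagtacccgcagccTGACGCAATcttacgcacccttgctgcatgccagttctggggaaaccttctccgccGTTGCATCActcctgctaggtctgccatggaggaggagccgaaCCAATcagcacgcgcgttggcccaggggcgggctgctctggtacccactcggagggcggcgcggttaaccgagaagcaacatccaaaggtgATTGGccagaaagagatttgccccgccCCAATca

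Each deposited table compares the treatments in 1 compartment and names no numerator. Signs are therefore given as deposited: libraries on the side where a log2 fold change above 0 means more RNA are called positive-side, the others negative-side, and neither is known to be Abeta or vehicle. The tables hold means over 4 libraries. The reads behind each mean were recovered exactly from its digits, as 1 whole number per library, for all 10 genes in both tables. Size factors, the relative depths of the libraries, were 1.32 and 1.28 on the positive side of the axonal table and 0.952 and 0.740 on its negative side. In soma each side joined a deep library (2.97 and 3.74) with a shallow one (0.297 and 0.320). Reads in recovered genes numbered 231854 to 425420 per axonal and 262971 to 3656302 per somatic library. Neuronal markers fixed for this check had reads for 8 of 8 identifiers in both compartments, and astrocyte markers for 9 of 9.

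The axonal comparison asks which transcripts differ in the treated compartment itself. None of the 10 genes was called there, beside 23% of the 1321 genes given an adjusted p, and of the 10 only Atf4 was given one. In 7 of them both positive-side libraries lay above both negative-side ones, beside 17.1% of all recovered genes and 30.6% of those with a mean of 10 or more: Atf4, Ddit3, Atf5, Chac1, Sesn2, Ddit4 and Cebpb. The largest differences were those of Ddit3 and Ddit4, and Atf3, Trib3 and Asns showed overlapping sides. In bulk RNA of this kind, fewer cells of a type and less RNA per cell cannot be told apart.

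Atf4, the transcription factor at the centre of the response (ENSRNOG00000017801), reached 57.4 (library 1) and 109 (library 2) normalized counts on the positive side of the axonal table and 47.3 and 36.5 on the negative side. These stem from 76, 139, 45 and 27 reads. Positive-side library 2 stood above the other 3, which lay close together. In the authors' deposited table, the log2 fold change was 0.91 (SE 0.58; adjusted p = 0.288 by DESeq2's Wald test), or 1.87-fold, with a 95% interval of -0.22 to 2.04. Without positive-side library 2, the log2 ratio of the recovered sides dropped from 0.97 to 0.45.

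Atf5, a bZIP factor close to ATF4 that is translated under the same control and serves the mitochondrial stress response, followed Atf4. Its normalized counts were 20.4 and 45.4 on the positive and 20.0 and 10.8 on the negative side. The lower positive-side and the higher negative-side library were almost level, and the sides separated by less than 1 count. Its log2 fold change in the authors' deposited table was 0.92 (SE 0.76). The log2 ratio of the recovered sides was 1.05, and 0.39 without positive-side library 2.

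Ddit3, the CHOP factor that ATF4 induces (ENSRNOG00000006789), was read 14 and 22 times on the positive side, and 2 and 0 times on the negative one. In normalized counts this is 10.6 and 17.2 against 2.10 and 0. Per unit of depth the positive side held 11.7 times the reads of the negative side, with an exact 95% counting interval of 3.02 to 100.4. Both positive-side libraries stood apart from both others, on 38 reads in all. The authors' deposited table gives a log2 fold change of 2.22 (SE 1.02) with an unadjusted p of 0.0290 by DESeq2 and no adjusted p. In RefSeq, Mars1 (a methionyl-tRNA synthetase) and LOC134479709 overlap Ddit3, and reads of overlapping genes may not be told apart. The table's Mars stood at 0.64 (SE 0.68) in axons in the authors' deposited table.

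Cebpb, a C/EBP factor and partner of ATF4, was sparse, with 7 and 4 reads on the positive and 2 and 0 on the negative side. Its ratio per unit of depth was 3.58, with a counting interval of 0.781 to 33.2 that spans 1. The log2 fold change of Cebpb was 0.83 (SE 1.06) in the authors' deposited table. Atf3, a stress-induced bZIP factor downstream of ATF4 and a marker of injured axons' cell bodies, had 7.56 and 7.83 normalized counts on the positive and 13.7 and 2.70 on the negative side. The negative-side libraries lay on either side of the positive-side pair, and the log2 fold change of Atf3 was -0.07 (SE 0.98) in the authors' deposited table.

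Among the target genes, Ddit4 (REDD1, an inhibitor of mTORC1 signalling; ENSRNOG00000000577) separated most clearly. It had 38.5 and 38.3 normalized counts on the positive and 6.30 and 14.9 on the negative side, from 51, 49, 6 and 11 reads. The positive-side pair was level and the negative-side pair lower in both libraries, and the ratio per unit of depth was 3.83 (counting interval 2.27 to 6.83). The authors' deposited table gives Ddit4 a log2 fold change of 1.60 (SE 0.75), an unadjusted p of 0.0321 by DESeq2 and no adjusted p. Leaving out each library in turn kept the log2 ratio between 1.31 and 2.43.

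Sesn2, a sestrin that lowers mTORC1 activity when leucine is short, had 21.9 and 41.5 normalized counts on the positive and 18.9 and 5.40 on the negative side. Positive-side library 1 and negative-side library 1 were nearly level, and the other pair differed widely. The log2 fold change of Sesn2 was 1.13 (SE 0.79) in the authors' deposited table, and the log2 ratio of sides ran from 0.72 without negative-side library 2 to 2.35 without negative-side library 1.

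Asns, which makes asparagine and is a classical ATF4 target, had 37.8 and 28.2 against 21.0 and 35.1 normalized counts, so its sides overlapped. Its log2 fold change was 0.21 (SE 0.68) in the authors' deposited table. Chac1, which degrades glutathione, had 4.54 and 4.70 against 4.20 and 2.70 normalized counts, from 6, 6, 4 and 2 reads. The sides of Chac1 separated by less than 1 normalized count, and its log2 fold change was 0.24 (SE 1.05) in the authors' deposited table. Trib3, a pseudokinase that ATF4 induces and that restrains it in turn, had 8, 1, 2 and 4 reads in the same order of libraries, with a log2 fold change of -0.06 (SE 1.06) in the authors' deposited table. The pair of genes whose printed windows hold the composite element, Trib3 and Chac1, lay near 0, on 15 and 18 reads. A relation between the letters and the fold changes was not tested.

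**Figure D1:**
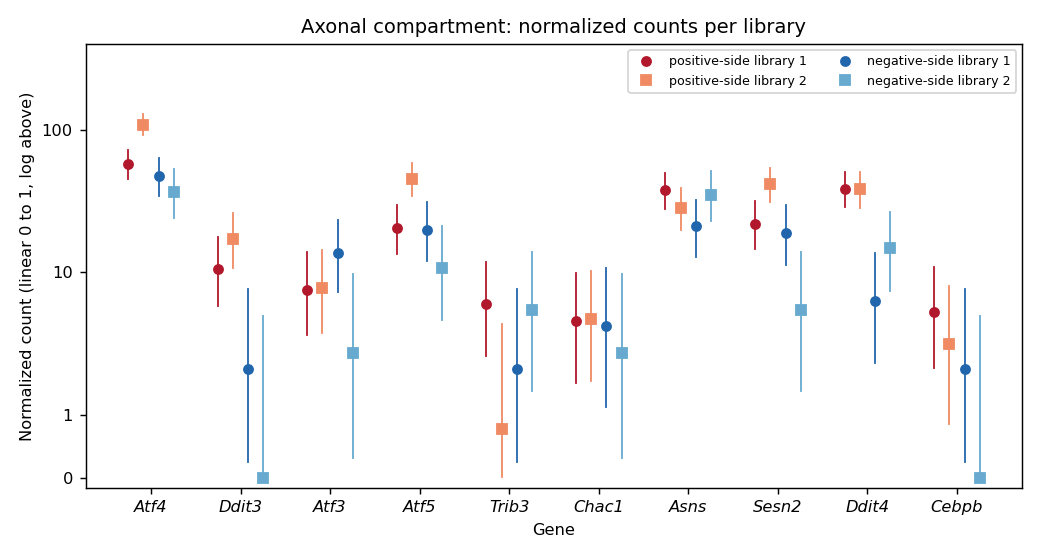
Normalized counts of the 10 genes (x axis) in the 4 axonal libraries (y axis, linear from 0 to 1 and logarithmic above), with exact 95% Poisson intervals of each library's reads as vertical lines. Ddit4 has 38.5 and 38.3 on the positive side against 6.30 and 14.9, while the 4 intervals share a common range for each of Cebpb, Trib3, Chac1, Atf3 and Asns.

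As a group, 8 of the 10 genes lay above 0 in axons and 2 below, with a median log2 fold change of 0.87, beside 43.7% of all genes with reads and 57.7% of those with a mean of 10 or more above 0. Over all 23879 genes with axonal reads the median was -0.13, and over the 8032 whose mean reached 10 it was 0.15. The smallest mean with an adjusted p was 44.8, which among the 10 only Atf4 exceeded. At an unadjusted p under 0.05 (DESeq2), 2 of 10 passed, Ddit3 and Ddit4, beside 4.45% of all genes. Both were positive, as were 1.86% of all genes and 4.78% of those with a mean of 10 or more. The sides did not overlap, with the positive one higher, for 7 of 10 genes. This held for 17.1% of all recovered genes, for 30.6% of those with a mean of 10 or more, and for 33.5% of those that reached it in both tables. The reverse, with the negative side higher, held for 0 of 10 and for 20% of all recovered genes. Its share was 18.9% among genes with a mean of 10 or more and 14.1% among those that reached it in both tables. Of the 5 members whose axonal mean reached 10, Atf4, Atf5, Sesn2 and Ddit4 separated and Asns did not. Leaving out each library in turn gave 7 to 9 separated members, but the share among all genes whose mean reached 10 then ran from 38.4% to 47.9%.

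Several measures of the whole libraries moved to the same side. The 2683 genes well expressed in soma (somatic mean of 100 or more) centred on 0.44 in axons, as their median log2 fold change, and 76.6% of them lay above 0. Relative to that shift, Ddit3 stood at 1.78, Ddit4 at 1.17, Sesn2 at 0.70, Atf5 at 0.49, Atf4 at 0.47 and Cebpb at 0.39. Chac1 and Asns turned to -0.20 and -0.23, and Atf3 and Trib3 stood at -0.51 and -0.50, so 6 of 10 lay above it. Summed astrocyte markers reached 3524 and 3930 normalized counts in the positive-side axonal libraries against 625 and 1013 in the others. Of these 9 markers, 8 lay above 0 and 6 were called, among them Vim (log2 fold change 2.53) and Gfap (2.27) in the authors' deposited table. Fibroblast and meningeal markers summed to 349 and 763 against 120 and 134, but only 2 of these 6 lay above 0, the called collagens Col1a1 and Col1a2, and the median of the 6 was -0.10. Neuronal markers summed to 581 and 673 against 378 and 782, with no order between the sides. Microglial markers summed to 65.0 and 27.4 against 106 and 158, those of oligodendrocytes to 37.8 and 36.0 against 48.3 and 10.8, and those of endothelium to 0.756 and 5.48 against 20.0 and 13.5. No marker of these 6 lists was at 0 over the axonal libraries. The 10 genes are not specific to neurons, and the part of other cells in the axonal values was not tested. A further 5473 genes were read in axons and never in soma. They made up 2.80% and 1.25% of the recovered reads of the positive-side libraries and 5.59% and 4.62% of the negative-side ones. Of these genes, 24.5% had an axonal mean at or above that of Cebpb, 14.9% at or above Trib3, 12.4% at or above Chac1, 2.83% at or above Ddit3 and 2.41% at or above Atf3. For Atf5, Ddit4, Sesn2 and Asns the share was at most 0.164%, and for Atf4 it was 0%.

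**Figure D2:**
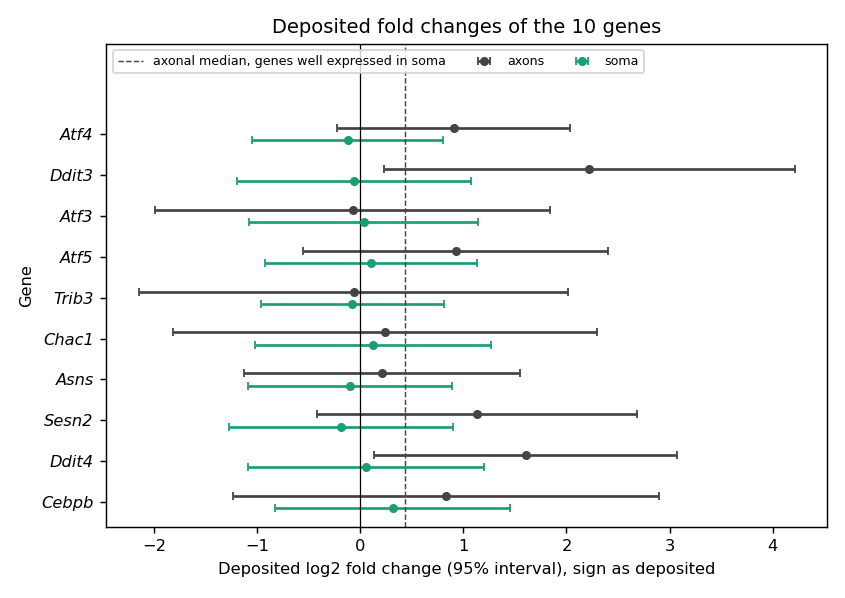
Log2 fold changes of the 10 genes in the authors' deposited table for axons (grey) and soma (green), signs as deposited, with 95% intervals as bars; the dashed line is the axonal median of genes well expressed in soma, 0.44. The axonal intervals of Ddit3 and Ddit4 lie above 0, those of the other 8 genes span it, and every somatic interval spans 0.

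The somatic comparison asks whether cell bodies differed when only their axons were treated. None of the 10 genes was called there: log2 fold changes ran from -0.19 (Sesn2) to 0.32 (Cebpb) in the authors' deposited table, 5 above and 5 below 0, beside 45.7% of all genes and 44.2% of those with a mean of 10 or more above it. The sides of all 10 overlapped. All 10 were given an adjusted p and 0 were called, beside 0% of 18995 genes, and 0 had an unadjusted p under 0.05 (DESeq2), beside 0.0105% of all genes and 0.0179% of those with a mean of 10 or more. The positive side was higher without overlap for 7.55% of recovered genes, the negative side for 7.85%. With a mean of 10 or more these shares were 7.42% and 8.26%, and the first was 6.77% among genes that reached it in both tables. The 95% intervals of the 10, from the deposited SE, reached from -1.28 to 1.46 on the log2 scale. Each side joined a deep and a shallow library, so these SE also hold the difference between depths. Only 2 of 18995 genes had an unadjusted p under 0.05 (DESeq2), so few genes of any kind could be called. The bounds are therefore not limits of detection, and the lack of calls does not show that cell bodies were unchanged.

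Atf4 had 336 and 202 normalized counts in the deep and the shallow positive-side library of the soma, and 356 and 244 in the negative-side ones, from 997, 60, 1332 and 78 reads. Values of the deep pair lay near each other, as did those of the shallow pair, and the log2 fold change was -0.12 (SE 0.47) in the authors' deposited table, with an interval of -1.05 to 0.80. Ddit3 had 39.1 and 13.5 on the positive against 49.2 and 6.26 on the negative side, the shallow libraries holding 4 and 2 reads. Its log2 fold change was -0.06 (SE 0.58) in the authors' deposited table. Ddit4 had 16.2 in the deep and 141 in the shallow positive-side library, against 15.2 and 131 on the negative side. The sides of Ddit4 lay together within each depth, and its shallow libraries stood 8.69 times above its deep ones. Its log2 fold change was 0.06 (SE 0.58) in the authors' deposited table.

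In soma, more of the 10 genes were ordered by depth than by side, some of them within counting error. Ddit4, Sesn2 and Atf5 were higher in both shallow libraries, by 8.69, 2.34 and 1.94 times, and Atf4, Ddit3, Atf3, Trib3, Asns and Cebpb in both deep ones, while Chac1 overlapped. For Trib3 this rests on 0 reads in both shallow libraries, whose exact 95% upper limits of 12.4 and 11.5 normalized counts lie above the deep values of 3.37 and 4.54. Cebpb had 1 and 2 shallow reads and Atf3 had 5 and 4. For Cebpb, Atf3 and Asns, the exact 95% interval of each shallow library covered a deep value. Of genes whose somatic mean reached 10, 32.3% had both shallow libraries above both deep ones and 38.4% the reverse, so such a separation was common. Cebpb, Chac1 and Trib3 did not reach that mean. In the size of this difference Ddit4 stood at the 99.3 percentile of 11048 genes, and Ddit3, at a shallow to deep ratio of 0.224, at the 1.23 percentile. What distinguishes the deep from the shallow libraries beyond their depth is not given in the sources used here, and the cause was not tested. Within the deep pair, the log2 ratio of positive to negative side was -0.08 for Atf4, -0.32 for Ddit3 and 0.08 for Ddit4, and within the shallow pair -0.27, 1.00 and 0.11. Asns had -0.38 in the deep and 0.27 in the shallow pair, Sesn2 -0.40 and -0.19, and Atf5 0.19 and 0.11. Cebpb had 1.06 in the deep pair, on 48 against 27 reads, and -0.73 in the shallow pair, on 1 against 2 reads. Chac1 (-0.30 and 1.00), Atf3 (-0.10 and 0.40) and Trib3 (-0.34 and 0, the latter without reads) likewise had no direction shared by both depths, and 4 of the 10 genes kept 1 sign, Atf4, Atf5, Sesn2 and Ddit4.

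**Figure D3:**
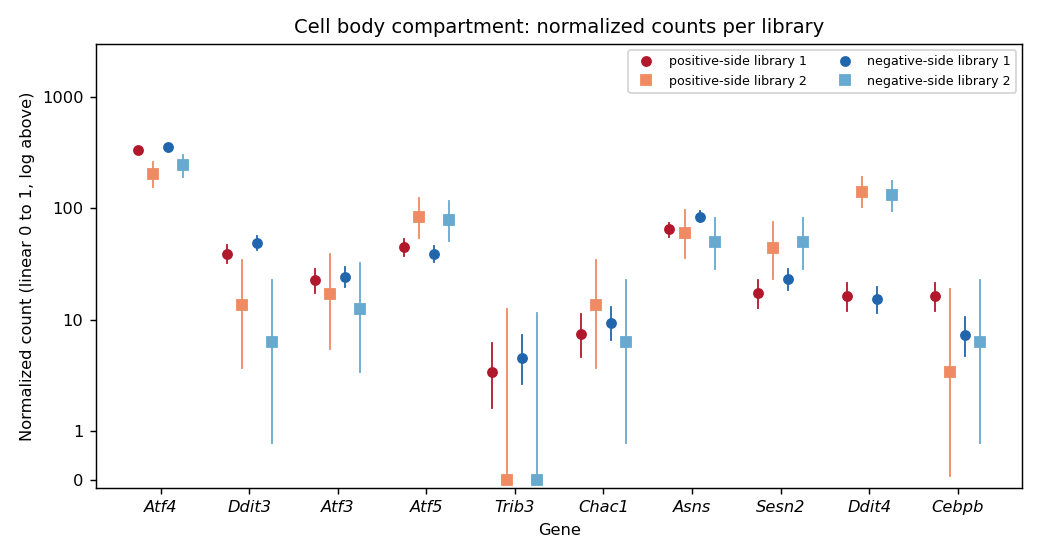
Normalized counts of the 10 genes (x axis) in the 4 somatic libraries (y axis, linear from 0 to 1 and logarithmic above), circles for the deep and squares for the shallow libraries, with exact 95% Poisson intervals of the reads. Circles and squares of Ddit4 stand far apart (16.2 and 15.2 against 141 and 131) while its sides lie together.

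The third comparison asks whether the axonal difference itself differs from the somatic one, taking the signs of both tables as deposited. The axonal minus somatic difference of log2 fold changes was above 0 for 9 of 10 genes, and 0 of 10 passed, beside 0.0326% of 18406 genes tested (two-sided normal test, Benjamini-Hochberg adjusted over all of them). The share of all genes above 0 was not counted. Genes well expressed in soma centred on 0.44 in axons and -0.06 in soma, so the general shift enters this count. Deposited values on few reads also lay nearer 0 than recovered ratios, by unlike amounts in the compartments. For Chac1 they were 0.24 against 0.34 in axons and 0.13 against 0.38 in soma. Reads per unit of depth gave Chac1 a somatic ratio of positive to negative side of 0.874, which lies below 1. The 0.38, a log2 ratio of side means, thus differs from it in direction. The same held for Atf3 in soma, with a ratio of 0.943 and a log2 ratio of side means of 0.09. At an unadjusted p under 0.05, 0 of 10 passed, beside 2.6% of genes. Ddit3 had the largest difference, 2.28 (SE 1.17), with a 95% interval of -0.01 to 4.57. Ddit4 stood at 1.55 (SE 0.95, interval -0.31 to 3.41), Sesn2 at 1.32 (SE 0.97) and Atf4 at 1.03 (SE 0.75, interval -0.43 to 2.49). All 10 had an adjusted p of 1.00. With each table centred on its own shift, the differences of Trib3, Chac1 and Asns fell below 0, where that of Atf3 already lay (-0.61 after centring).

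Axonal and somatic levels were also set side by side, in RPM (reads per 1000000 reads), counted over the 15861 named genes recovered in both tables. The tables were normalized separately by the authors, so these levels were not tested. Atf4 had 162 to 401 RPM in the axonal libraries (median 221) and 247 to 403 in the somatic ones (median 348). Asns had 94.0 to 156 in axons against 60.9 to 94.8 in soma, and its ranges touched only at their ends. Sesn2 (24.0 to 153 against 20.6 to 60.9), Atf5 (48.0 to 167 against 43.8 to 103) and Ddit4 (28.2 to 155 against 17.1 to 173) overlapped widely. The mean level of Trib3 was 15.2 in axons and 2.29 in soma, on 15 and 27 reads, while both shallow somatic libraries held 0 reads of it. For Ddit3 the means were 28.9 (SD 29.4) and 31.6 (SD 23.1), for Atf3 33.1 and 22.6, for Chac1 16.6 and 10.9, and for Cebpb 10.6 and 9.81. The ranges of all 10 genes overlapped between the compartments, so no order of compartments held beyond the spread of the libraries. Of all such genes, 13.6% had every axonal library above every somatic one and 6.63% the reverse.

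The remaining pathway was described by a list of 103 identifiers in 8 groups. In axons 102 had reads, 78 of them above 0 and 60 above the shift of 0.44, with a median log2 fold change of 0.61. Beside this, 57.7% of all genes with a mean of 10 or more lay above 0, and 76.6% of those well expressed in soma. The shift is itself the median of the latter genes. Of the 14 with an adjusted p, 3 were called, all positive, beside 8.78% of the 1321 genes in that direction, and 0 were called negative, beside 14.2%. The called genes were Slc3a2, Sqstm1 and Sesn3. In soma 0 of 103 were called, 41 lay above 0, beside 45.7% of all genes with reads, and the median was -0.06.

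Slc3a2, the heavy chain shared by amino acid exchangers of the plasma membrane, had 85.4 and 167 normalized counts on the positive and 42.0 and 31.1 on the negative side. Sqstm1 (p62, an autophagy receptor) had 120 and 146 against 30.5 and 47.3, and Sesn3, a sestrin like Sesn2, had 48.4 and 112 against 20.0 and 23.0. In all 3 genes both positive-side libraries were higher, and positive-side library 2 was the highest. Log2 fold changes in the authors' deposited table were 1.65 (SE 0.55, adjusted p = 0.0169 by DESeq2) for Slc3a2, 1.67 (SE 0.52, adjusted p = 0.0137) for Sqstm1 and 1.72 (SE 0.63, adjusted p = 0.0306) for Sesn3. None of the 3 calls held after centring on the shift of 0.44 (adjusted p = 0.118, 0.0816 and 0.158), or when p-values were adjusted over every gene whose mean reached 10 (0.0882, 0.0726 and 0.155). In soma they stood at -0.04, 0.02 and -0.14 in the authors' deposited table.

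Upstream of Atf4, the 4 eIF2 kinases had an axonal median of 0.16, and 0 of them had an adjusted p, so none could be called. Eif2ak4 (GCN2, the sensor of amino acid lack) had 22.7 and 18.0 normalized counts on the positive and 42.0 and 41.9 on the negative side. Its log2 fold change was -0.93 (SE 0.67), and that of Eif2ak3 (PERK, the sensor in the endoplasmic reticulum) was 0.56 (SE 0.71), in the authors' deposited table. The sides of GCN2 thus lay apart in the direction opposite to Ddit4. The 12 genes listed for eIF2, its exchange factor eIF2B and the eIF2 phosphatase had a median of 0.42, and 0 of them had an adjusted p. The list also holds Eif2a (-0.05), which encodes a subunit of none of these. The phosphatase subunit Ppp1cc stood at 0.68 and Eif2s2 at 0.65 in the authors' deposited table.

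Other bZIP factors had 18 members with reads, 16 of them above 0, with a median of 0.86, and 0 had an adjusted p. Cebpd, a C/EBP factor of acute responses, had 19.7 and 49.3 against 11.6 and 0 normalized counts (log2 fold change 1.95, SE 0.88), and Jun, a component of AP-1, had 28.7 and 50.1 against 10.5 and 12.2 (1.55, SE 0.74), in the authors' deposited table. Aminoacyl-tRNA synthetases had a median of 0.66, 10 of 12 above 0 and 0 of 5 called, with Yars at 1.34 (SE 0.70) and Lars at 1.08 (SE 0.64) in the authors' deposited table. The 19 identifiers of amino acid supply had a median of 0.63 and 1 call among the 2 with an adjusted p, and the 24 of other targets had a median of 0.52 and 2 calls among 3. All 10 genes on the list of unfolded protein response sensors and chaperones lay above 0, and 7 of them above the shift of 0.44. Their median was 0.69, with 0 of 4 called. That list holds the sensor Ern1 (0.09, SE 0.97) but not the sensor Atf6. Atf6 was counted with the bZIP factors and lay below 0, at -0.13 (SE 0.75) in the authors' deposited table. Above 0 lay also 57.7% of all genes with a mean of 10 or more and 76.6% of those well expressed in soma. Of these, Calr had 144 and 135 against 65.1 and 63.5 normalized counts (log2 fold change 1.06, adjusted p = 0.103 by DESeq2), and Hsp90b1, the chaperone GRP94, 112 and 132 against 64.1 and 41.9 (1.12, adjusted p = 0.104), in the authors' deposited table. Close relatives of members had no adjusted p in the authors' deposited table, where Trib2 stood at 0.95 (SE 0.83), Trib1 at -0.13 and Chac2 at -0.38.

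**Figure D4:**
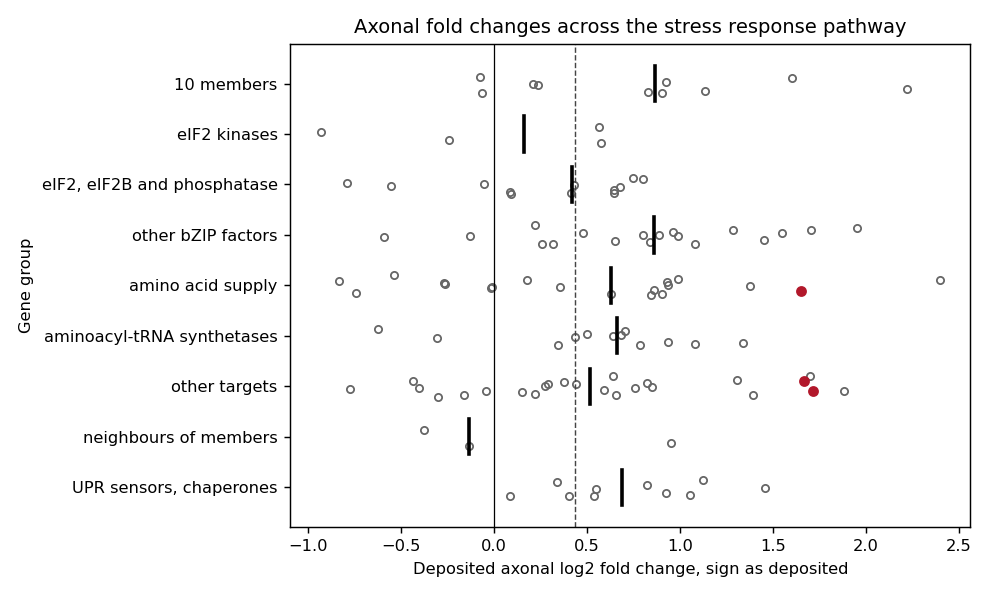
Axonal log2 fold changes from the authors' deposited table (x axis, signs as deposited) for the 10 genes and 8 groups of the pathway (y axis); open circles are genes not called, filled red circles the 3 called genes Slc3a2, Sqstm1 and Sesn3, black bars group medians and the dashed line the shift of 0.44. Medians run from -0.13 for relatives of members to 0.87 for the 10 genes.

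The pattern of Atf4 over the 4 axonal libraries was compared with 7346 named genes whose mean reached 10, as the distance between log2(normalized count + 1) values centred on each gene's mean. The nearest were Samd4b (distance 0.0472), Zhx1 (0.0594), Appl1 (0.109), Mob4 (0.113) and Sec62 (0.129). Samd4b, an RNA-binding protein, had 40.8 and 79.0 against 34.7 and 27.0 normalized counts, with positive-side library 2 highest as in Atf4. Among the members whose axonal mean reached 10, Atf5 was nearest to Atf4 (0.369), followed by Sesn2 (1.06), Asns (1.37) and Ddit4 (1.56). The remaining members were not compared. With 4 libraries and so many genes, close matches occur readily, and these are given as a description.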

How the data were processed

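RNA sequencing of 8 samples (4 groups of 2) was analysed from 2 tables, 1 per compartment. The submitters' processing notes list DESeq2, SAMtools, TopHat2 and Trim Galore, without versions. Neither the genome build, the annotation, the counting program nor its handling of strand and of multiply mapping reads is given in the sources. Per the file headers, each table holds a mean normalized count (a signal, which the authors made from counts and size factors), log2 fold changes and their SE as deposited, a Wald score deposited beside it, and deposited p-values with Benjamini-Hochberg adjusted values. The numerator is not named.

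For members on few reads the deposited log2 fold changes lay nearer 0 than the log2 ratio of recovered sides (2.22 against 2.86 for Ddit3 in axons). A gene was called at the authors' adjusted p under 0.05, and no count test was run. Reads per library were recovered by solving each mean below 1000 as whole reads times 4 library units, read from genes with a single read. Below a mean of 100, every value (100%) was solved in 1 way only, and 0% of shifted decoys could be solved. On simulated means like those of the axonal table, 999 of 999 were solved rightly, and 1000 of 1000 for the somatic one. The library units were given there, so the simulation cannot check the units read from the data. For means of 100 to 500, as for Atf4 in soma, 0.0827% of somatic decoys had a solution. For means of 500 to 1000, which no member reached but some marker genes did, the share was 2.56% in axons and 10.3% in soma. Recovered libraries carry no sample title and entered no test. Intervals of reads are exact Poisson or, for ratios, exact binomial, at 95%, and cover counting error only.

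The members and lists were chosen with earlier results of these data known. Named genes were the 10 members, pathway genes called in either table (otherwise the 2 of smallest axonal p per group), and the 5 nearest to Atf4. In RefSeq (GRCr8), 4 members (Ddit3, Atf3, Atf5 and Sesn2) overlap another gene. Alternatives changed the set of genes over which p-values were adjusted, the centring, the pseudocount (1 or 0.5) and the libraries used. Python 3.11.15, numpy 2.4.6, scipy 1.17.1, pandas 2.3.3 and numba 0.67.0 were used.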

Additional observations from a re-analysis of the deposited data

How the results depend on the processing

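The count of 0 called members stayed at 0 in axons with p-values adjusted over genes with a mean of at least 10 (5 members testable) or over every gene with reads (10 testable), and after centring (1 testable), and likewise in soma and for the difference under each alternative run. For the pathway list, the 3 calls became 0 under each of the 3 axonal alternatives: with adjustment over genes with a mean of at least 10, with adjustment over every gene with reads (adjusted p = 0.250 for Slc3a2, 0.207 for Sqstm1 and 0.402 for Sesn3), and after centring. More genes are tested in the first pair of these; for centring the subtracted shift lowers each value. These were chosen after seeing the data, as were the counts of separated members without each library and the within-depth values of the soma. Centring reversed the axonal sign of Chac1 (-0.20) and Asns (-0.23), and the axonal minus somatic sign of Trib3 (-0.49), Chac1 (-0.39) and Asns (-0.19). Without each library in turn, axonal log2 ratios changed sign for Atf3 (-0.75 to 1.23), Trib3 (-1.41 to 0.57) and Asns (-0.09 to 0.63), and kept it for the other 7 members. That of Ddit3 ran from 2.26 to 3.90 and that of Cebpb from 0.75 to 2.38. All 10 somatic ratios, near 0 with all libraries, changed sign. Each somatic side joins a deep and a shallow library, so leaving out 1 sets sides of unlike depth against each other. These ratios therefore also hold the difference between depths. That of Ddit4 ran from -2.11 to 2.30, beside 0.08 within the deep and 0.11 within the shallow pair. How much of each change goes with depth was not tested. In soma 1 to 4 of 10 members then had the positive side higher without overlap, against 0 with all libraries, beside 23.9% to 25.6% of all recovered genes under the same omissions. No paired analysis was possible because the deposited tables hold no column per sample and the recovered libraries carry no replicate number; the deep and shallow pairs of the soma were set by size factor, not by the labels, and give values with no test. With 13 to 38 reads over all axonal libraries for each of Cebpb, Trib3, Chac1, Atf3 and Ddit3, depth limits what can be seen for them.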

Other observations

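Some pathway genes outside the naming rule, chosen after their values were seen, had axonal sides far apart without an adjusted p. Both positive-side libraries lay above both others in 17.1% of all recovered genes and 30.6% of those with a mean of 10 or more. In the list of amino acid supply, 12 of 19 identifiers lay above 0. Among the others, Psph stood at -0.01, Slc1a5 at -0.74, Pycr1 at -0.84 and Gpt2 at -0.54 in the authors' deposited table. In the list of other targets, which holds Hmox1, 18 of 24 identifiers lay above 0. Among those below it were Bcl2l11 at -0.77, Ero1a at -0.43 and Txnip at -0.30 in the authors' deposited table. Values here are not centred on the shift of 0.44, and the axonal mean of Psat1, 9.13, did not reach 10. Psat1, an enzyme of serine synthesis and an ATF4 target, had 17.4 and 16.4 normalized counts on the positive and 0 and 2.70 on the negative side, with a log2 fold change of 2.40 (SE 0.99) in the authors' deposited table and -0.01 (SE 0.51) in soma. Hmox1, the heme oxygenase that NRF2 and ATF4 induce, had 39.3 and 69.6 against 12.6 and 16.2, at 1.70 (SE 0.68) in axons and -0.11 (SE 0.49) in soma in the authors' deposited table. Slc1a4, a transporter of neutral amino acids that astrocytes also express, had 43.1 and 42.3 against 12.6 and 16.2. It stood at 1.38 (SE 0.70) in axons and 0.12 (SE 0.47) in soma in the authors' deposited table. Positive-side values of Psat1 and Slc1a4 were level between the libraries, as for Ddit4, while those of Hmox1 were highest in positive-side library 2, as for Atf4.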
